A study of Mus musculus with 3 samples.

Results

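Naive-type CD4 and naive-type CD8 T cells of mouse blood were compared, gene by gene, within the same 3 libraries. The cells were chosen by raw UMI counts (unique molecular identifiers, each a counted molecule). A cell needed 4 or more UMIs summed over the T cell receptor genes Cd3e, Cd3d, Cd3g, Trac and Trbc2, at most 2 over the B cell genes Cd79a, Cd79b and Ms4a1, and at most 1 over the myeloid genes Csf1r and Csf3r. It also had to hold no UMI of Foxp3, the regulatory T cell factor, and none of Ccl5, Cxcr3 and Il2rb, genes of antigen-experienced T cells. The CD4 arm then needed 1 or more Cd4 UMIs and none of Cd8a and Cd8b1, and the CD8 arm 2 or more UMIs of Cd8a and Cd8b1 together and none of Cd4. Of 22688 barcodes with 200 or more genes, 1912 fell in the CD4 arm (1210, 303 and 399 in replicates 1, 2 and 3) and 909 in the CD8 arm (557, 154 and 198), 2821 in all. The leukocytes came from peripheral blood of untreated mice labelled male, aged 8, 9 and 10 weeks, with 1 library per age. Red cells had been lysed, and the sorted cells were fixed and counted with probes against transcripts on a 10x Chromium X. The labels give no strain and leave unsaid whether different animals stand behind the 3 libraries. The p-values measure how far the CD4 and CD8 difference within a sample varied over these 3 samples, a spread that may be technical.

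The coreceptors CD4 and CD8 bind MHC class II and class I molecules, and a developing thymocyte keeps the coreceptor that matches the MHC class its T cell receptor recognises. The factor ThPOK, the product of Zbtb7b, holds cells in the CD4 lineage, and Runx3 represses Cd4 and supports the CD8 lineage. Naive T cells of both lineages leave the thymus, circulate between blood and lymph nodes with the help of the chemokine receptor Ccr7, and keep the factors Lef1 and Tcf7 until they meet antigen.

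The cells carried transcripts of their labels, but not every label marker was found in most cells. Dapl1, a marker of the naive type, had a UMI in 45.3% ± 5.68 of CD4-arm cells and 52.7% ± 4.42 of CD8-arm cells (mean ± SD, n = 3). In B cells the share was 0.190% ± 0.101. Lef1 set the arms apart from B cells, but T cells outside the Ccl5, Cxcr3 and Il2rb limit carried it too, at levels given below. Lef1 had a UMI in 96.7% ± 1.62 of CD4-arm cells and 95.7% ± 1.93 of CD8-arm cells (mean ± SD, n = 3), against 5.97% ± 0.404 of 8649 B cells from the same libraries, and the median depth was 3259 to 3544 UMIs in the CD4 arm, 3681 to 3698.5 in the CD8 arm and 3083 to 3225 in B cells. Nkg7, a granule membrane protein of cytotoxic lymphocytes, had a UMI in 82.7% ± 2.32 of CD8-arm cells, so most cells gated as naive-type CD8 carried this transcript. Cxcr6, a receptor of memory and tissue T cells, was found in 24.6% ± 5.92 of them and in 0.414% ± 0.218 of CD4-arm cells. The limit on Ccl5, Cxcr3 and Il2rb took unequal parts of the lineages. It kept 83.3% ± 0.711 of 2305 CD4 cells but 31.5% ± 3.43 of 2981 CD8 cells, and Il2rb alone had a UMI in 63.0% ± 5.27 of those CD8 cells against 10.7% ± 1.70 of the CD4 cells. The part that this unequal gate plays in the differences was not tested.

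The values that chose the cells are a description only. Cells just inside the Cd4 limit, with exactly 1 Cd4 UMI, numbered 198, 60 and 87 and had Lef1 at 1529, 1618 and 1670 CPM (the gene's summed UMIs scaled to a common total), and cells with no coreceptor UMI, just outside it, numbered 89, 31 and 52 and had Lef1 at 1449, 1767 and 1379 CPM. For CD8, 7, 3 and 6 cells with exactly 2 UMIs lay just inside and 11, 9 and 9 with 1 UMI just outside, and Lef1 was at 730, 2030 and 1113 CPM against 1405, 1679 and 1068. A further 279 cells with UMIs of both coreceptors entered neither arm. The libraries held 45718031, 19591648 and 23443660 UMIs, and the largest share of red cell RNA was in replicate 2 (haemoglobin and other erythroid genes summed to 470 to 26573 CPM in the CD4 arm and 1568 to 22961 in the CD8 arm, with none of 4 tested genes called, at an unadjusted p under 0.05 or by DESeq2 either, but 3 of the 4 called without replicate 1). Between libraries 83, 101 and 48 barcodes recurred, of which 1, 1 and 0 lay in the arms in both libraries.

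The summed counts of each sample and arm were tested over 8586 genes with edgeR's quasi-likelihood test, with the sample as a block and the 17 gate genes left out. At a Benjamini-Hochberg adjusted p of 0.05, 733 genes (8.54%) were higher in the CD4 arm and 738 (8.60%) in the CD8 arm, and the median log2 fold over all genes was -0.0043. Large differences were fewer and leaned to the CD8 side: 141 of the CD4-arm genes and 185 of the CD8-arm genes differed by 2-fold or more, and 19 against 41 by 8-fold or more. The numbers depended on the tool and on replicate 1, which held 1210 of 1912 CD4-arm cells and 557 of 909 CD8-arm cells. DESeq2 called 243 and 272, and 393 and 441 were called without replicate 1. Of the 89 genes named by rule, DESeq2 did not call 12 that edgeR called (Art2b, Dusp2, Gbp2, H2-M3, Ifi206, Ifit2, Maf, Oas2, Oas3, P2rx7, St3gal2 and St3gal3). A stricter gate that also barred 10 more genes, Nkg7 and Cxcr6 among them, left 99 CD8-arm cells, 99 and 105 called genes, and 26 named genes that kept their sign but were no longer called (Art2b, Ccr7, Ddr1, Dusp2, Epas1, Gbp2, Gimap5, Gimap6, Gimap9, H2-M3, H2-T24, Ifi206, Ifit2, Ifngr1, Il10rb, Il4ra, Lef1, Ly6e, Oas2, Sla2, Socs1, St8sia4, Tgfbr3, Trbv12-1, Trbv2 and Trbv5). Dapl1, Ifi27l2a and Oas3 lost their calls there with the opposite sign. When Nkg7 and Cxcr6 were not barred, 559 and 580 genes were called. The plot of all tested genes places these calls by level and fold.

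**Figure D1:**
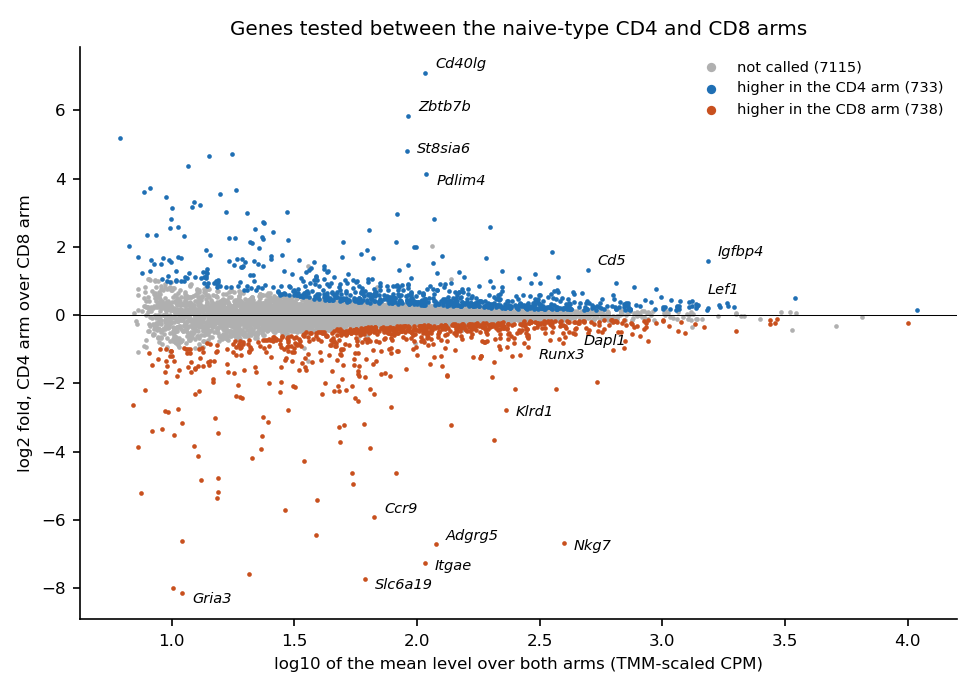
Each point is 1 of 8586 genes, with the log10 of its mean level over both arms (TMM-scaled CPM) on the x axis and the log2 fold of the CD4 arm over the CD8 arm on the y axis. The 733 genes higher in the CD4 arm are blue and the 738 higher in the CD8 arm are red, and Cd40lg and Zbtb7b lie at the top while Nkg7, Itgae and Slc6a19 lie far below the line at 0.

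Levels below are CPM after TMM scaling, which corrects each total for library composition, given in the order of replicates 1, 2 and 3. A log2 fold is that of the CD4 arm over the CD8 arm, and each SE and adjusted p is from the edgeR fit. Cd40lg (ENSMUSG00000031132, chrX:57212143-57224042, plus strand; positions are from the GRCm38 annotation), the CD40 ligand with which helper T cells signal to B cells, was at 219.7, 198 and 226 in the CD4 arm and 1.47, 3.64 and 0 in the CD8 arm (log2 7.09, SE 0.24, adjusted p = 3.07e-41). The arms were far apart in every sample, and the CD8 arm held 5 UMIs of the gene against 1444. After each cell was thinned to 2000 UMIs, Cd40lg had a UMI in 31.4% ± 1.16 of CD4-arm cells, 0.294% ± 0.356 of CD8-arm cells and 0.08296% ± 0.0391 of B cells (unthinned 45.7% ± 3.07, 0.396% ± 0.347 and 0.189% ± 0.0529). Zbtb7b (ENSMUSG00000028042, chr3:89377644-89394776, minus strand), the ThPOK gene, was at 172, 169 and 202 against 2.46, 9.11 and 0 (log2 5.83, SE 0.23, adjusted p = 6.65e-36). Its CD8-arm total was 10 UMIs, with none in replicate 3, and the groups did not overlap. Without replicate 2 its log2 fold was 6.58. B cells carried Zbtb7b at 81.6 ± 6.26 plain CPM (without the TMM factor).

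St8sia6, a sialyltransferase that adds a sialic acid to another one, was at 176, 191 and 152 against 2.95, 12.8 and 9.94 (log2 4.80, SE 0.20). Pdlim4, an actin-associated scaffold, was at 214, 189 and 212 against 9.34, 14.6 and 17.05 (log2 4.12, SE 0.16), and had a UMI in 24.5% ± 1.87 of thinned CD4-arm cells and 1.89% ± 0.4801 of CD8-arm cells. In both genes every CD4-arm sample lay above every CD8-arm sample, as was true of 26.2% of tested genes in either direction. Genes of lower level in this group were Myo10, an unconventional myosin (log2 4.71), Adh1, an alcohol dehydrogenase (3.66), Epas1, a hypoxia-inducible factor (3.54), Lgmn, the lysosomal protease legumain (3.33), Chn2, a GTPase-activating protein for Rac (3.21), and Maf, a factor of helper and memory T cells (3.17). Some of these folds moved with single libraries, without losing their calls. With each replicate left out in turn St8sia6 ranged over 3.90 to 5.14 (lowest without replicate 1) and Myo10 over 3.64 to 6.31 (lowest without replicate 1, highest without replicate 2). Maf had CD8-arm levels of 3.93, 0 and 0, so that without replicate 1 its fold (log2 7.48) is against no UMI, depends on the prior count and is no bound. Epas1 gave 29.5, 29.2 and 28.2 in the CD4 arm against 1.97, 1.82 and 4.26 in the CD8 arm. Nav2, a neuron navigator gene, held 3 UMIs in the whole CD8 arm, and its pooled ratio of CD4 over CD8 was 26.8 (exact 95% interval 8.99 to 131). Ckb, the brain-type creatine kinase, also held 3, with a ratio of 21.5 (exact 95% interval 7.19 to 105). All 3 lay in replicate 1, and without it the fitted fold (log2 7.55) is likewise no bound.

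On the CD8 side, Gria3, a glutamate receptor subunit, and Bace1, a membrane protease, had no UMI in 1912 CD4-arm cells and 70 and 63 UMIs in the CD8 arm. Against a floor of 3 counts over the CD4 arm they were at least 47.1-fold and at least 42.4-fold higher in the CD8 arm. Slc6a19 (ENSMUSG00000021565, chr13:73679745-73704865, minus strand), a transporter of neutral amino acids best known from kidney and gut, was at 99.3, 138 and 129 in the CD8 arm and held 3 UMIs in the CD4 arm, a pooled ratio of CD4 over CD8 of 0.00403 (exact 95% interval 0.000827 to 0.0119). For Cldnd2, a claudin-domain gene, and Trnp1, a nuclear protein gene, with 1 CD4-arm UMI each, that ratio was 0.00347 (exact 95% interval 0.0000871 to 0.0196) and 0.00688 (exact 95% interval 0.000172 to 0.0396). These intervals cover counting error only.

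Itgae (ENSMUSG00000005947, chr11:73090583-73147446, plus strand), the integrin chain CD103 that binds E-cadherin on epithelium, was at 224, 209 and 209 in the CD8 arm against 1.83, 1.01 and 0 in the CD4 arm (log2 -7.26, SE 0.21, adjusted p = 4.74e-46). Regulatory CD4 cells, gated by Foxp3, carried it at 163 ± 40.2 plain CPM, so the low level was that of the CD4 arm and not of every CD4 cell in these libraries. Adgrg5 (ENSMUSG00000061577, chr8:94923694-94943280, plus strand), an adhesion G protein-coupled receptor, was at 243, 242 and 230.1 against 3.21, 1.01 and 0 (log2 -6.70, SE 0.19). Ccr9, the receptor for the gut chemokine CCL25, was at 128, 117 and 151 against 1.83, 4.02 and 1.57 (log2 -5.90, SE 0.22). Bend4 (log2 -6.43), Eng, a co-receptor of the TGF-beta family (-5.69), and Haao, an enzyme of tryptophan breakdown (-5.42), completed the 12, and Haao stood at 289.6 ± 22.8 plain CPM in B cells. With each replicate left out these calls held, but the folds ranged over -8.49 to -7.00 for Itgae, -8.66 to -6.42 for Adgrg5 and -5.75 to -4.59 for Haao. In these 3 genes the value farthest from that of all samples was the one without replicate 1. The 5 CD4-arm UMIs of Bend4 all lay in replicate 1, and without it the fitted fold (log2 -9.19) is no bound.

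**Figure D2:**
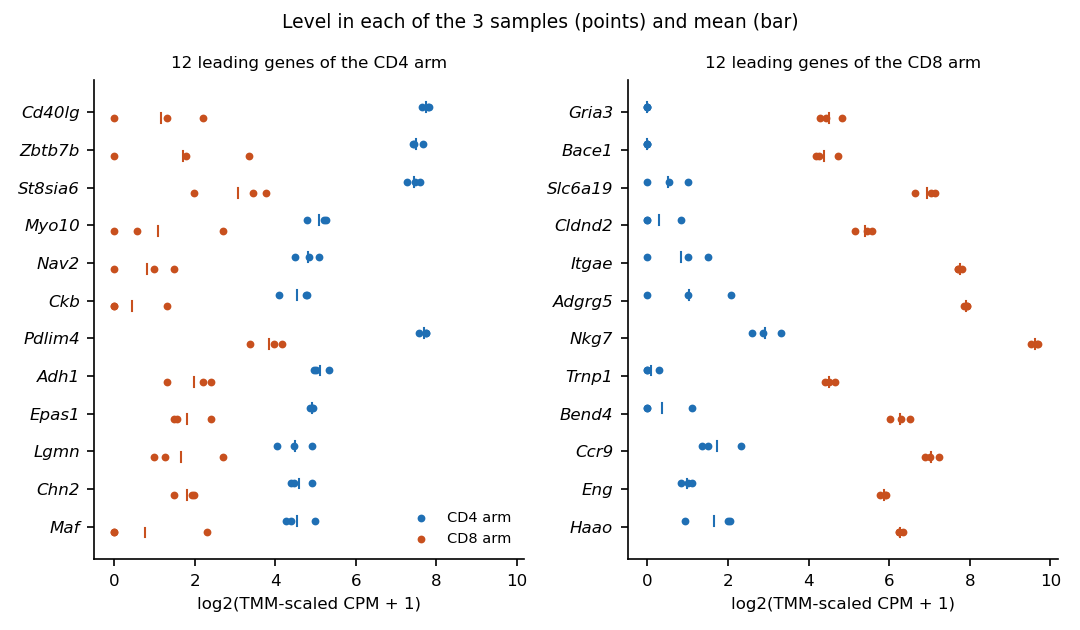
Points are the 3 samples of each arm and bars their means, as log2(TMM-scaled CPM + 1), for the 12 leading called genes of each arm by log2 fold at 20 CPM or more in an arm. In all 24 genes the samples of the arms do not overlap, as in 26.2% of all tested genes. The genes were chosen for large folds with the same direction in all 3 samples, which favours such separation. Gria3 and Bace1 sit at 0 in every CD4-arm sample.

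Among 40 lineage factors, 34 passed the filter on low counts, and 15 were higher in the CD4 arm and 5 in the CD8 arm (44.1% and 14.7% of those tested), with a median log2 fold of 0.13. Over all genes tested the shares were 8.54% and 8.60%, the background for this list and each list below. Runx3 (ENSMUSG00000070691, chr4:135120652-135177990, plus strand) was at 203, 193 and 178 in the CD4 arm and 358, 363 and 413 in the CD8 arm (log2 -0.94, SE 0.07, adjusted p = 3.14e-20). The groups did not overlap, but the CD4 arm was far from empty: thinned cells with a Runx3 UMI made up 29.1% ± 3.31 of it and 49.1% ± 3.31 of the CD8 arm, with B cells, which carry Runx3 at 162 ± 6.25 plain CPM, at 26.2% ± 0.941. Its family member Runx1 went the other way, at 114, 119 and 151 against 51.1, 65.6 and 68.2 (log2 1.10, SE 0.12, adjusted p = 2.45e-12). Gata3, which acts upstream of ThPOK in thymocytes, was at 171, 129 and 174 against 77.7, 83.8 and 109 (log2 0.92, SE 0.11, adjusted p = 4.99e-11), with every CD4-arm sample the higher. Tox, needed for CD4 lineage development in the thymus, gave 123, 125 and 133 and 124, 83.8 and 119 and was not called (adjusted p = 0.485). Eomes, a factor of memory and cytotoxic cells, was higher in the CD8 arm at 28.6 ± 6.05 against 2.48 ± 0.4901 (mean ± SD, n = 3; log2 -3.44), and so were Ikzf3, the Aiolos gene (-0.66), Id2, an inhibitor of E proteins (-0.56), and Myb (-0.54). Myb gave 56.5, 21.9 and 98.02 in the CD8 arm against 36.9, 30.2 and 60.4, so the arms overlapped and replicate 2 went the other way. The Id2 relative Id3 was higher in the CD4 arm (0.62), as were Bcl11b, a T lineage identity factor (0.59), the T cell factor Ets1 (0.50), and the genome organiser Satb1 (0.42). Cbfb, the partner of all RUNX proteins, was at 429 ± 19.7 and 409 ± 23.7 and was not called (adjusted p = 0.669).

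To show the sequence next to genes that differed, the 250 bases before a RefSeq transcription start were searched for motifs, and 4 windows are shown. They were chosen after the matches were seen: Runx3 (its upstream start) as the lineage factor, Sla2 as a CD8-arm gene of receptor signalling, Trnp1 as the leading CD8-arm gene with a match, and St8sia4 as a CD4-arm gene with as many RUNX matches as Runx3. Matches also stood in windows of the CD8-arm genes Cd160 (RUNX and TCF/LEF), Gbp2 (RUNX) and Ifi206 (TCF/LEF) and of the CD4-arm genes St8sia6, Ddr1 and P2rx7 (TCF/LEF), Cd44 and Il6ra (GATA) and Ifit2 (ETS). Motifs were searched as exact letters on both strands. The letters for RUNX factors were TGTGGTT and those for GATA factors were AGATAAG. Factors of the TCF/LEF family were searched as CTTTGAA, and those of the ETS family as CCGGAAGT. Capitals mark the match, which in the first 3 windows lies on the other strand and so reads as the reverse complement, and in St8sia4 on the strand shown. Sequences are from the RefSeq promoter table, build GRCm38.p6, 5′ to 3′ on the gene's strand.
Runx3, chr4:135120395-135120644, plus strand, 2 RUNX matches: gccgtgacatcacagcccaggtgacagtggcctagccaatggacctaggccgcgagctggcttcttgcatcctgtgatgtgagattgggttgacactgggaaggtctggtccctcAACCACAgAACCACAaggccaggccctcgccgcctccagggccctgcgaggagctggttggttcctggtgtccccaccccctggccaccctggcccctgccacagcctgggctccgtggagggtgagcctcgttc
Sla2, chr2:156887222-156887471, minus strand, 1 RUNX match: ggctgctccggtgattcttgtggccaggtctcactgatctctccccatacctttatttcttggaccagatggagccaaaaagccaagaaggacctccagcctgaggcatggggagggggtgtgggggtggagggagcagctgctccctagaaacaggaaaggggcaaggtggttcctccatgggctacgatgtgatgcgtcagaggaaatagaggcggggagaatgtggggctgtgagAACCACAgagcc
Trnp1, chr4:133498551-133498800, minus strand, 1 GATA match: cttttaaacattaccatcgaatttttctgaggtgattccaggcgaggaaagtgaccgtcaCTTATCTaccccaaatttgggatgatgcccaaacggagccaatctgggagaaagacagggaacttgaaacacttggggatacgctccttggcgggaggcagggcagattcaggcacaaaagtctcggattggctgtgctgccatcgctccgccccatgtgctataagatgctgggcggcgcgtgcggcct
St8sia4, chr1:95667595-95667844, minus strand, 2 RUNX matches: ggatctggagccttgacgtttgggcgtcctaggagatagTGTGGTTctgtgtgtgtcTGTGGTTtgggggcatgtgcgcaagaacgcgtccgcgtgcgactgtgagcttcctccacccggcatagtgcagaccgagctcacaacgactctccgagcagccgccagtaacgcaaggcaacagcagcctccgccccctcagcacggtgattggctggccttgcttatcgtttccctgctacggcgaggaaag
Such letters were rare in all windows. The RUNX letters stood in 5.08% of 27025 genes of the table, in 3.85% of the 6954 tested genes matched to it, in 6.48% of 586 CD4-arm genes and in 5.68% of 581 CD8-arm genes. The ETS letters stood in 7.82% of tested genes, 4.61% of CD4-arm genes and 5.51% of CD8-arm genes, the GATA letters in 1.96%, 3.07% and 2.41%, and the TCF/LEF letters in 3.71%, 4.27% and 4.82%. Of the 12 leading genes of each arm, 9 had a window, and in each arm 1 gene held any of the 4 motifs. A match describes letters and is not evidence of a bound site.

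Of 25 genes of the naive programme, all 25 passed the filter, 15 were higher in the CD4 arm and 4 in the CD8 arm (60% and 16%), and the median log2 fold was 0.20. Igfbp4, an insulin-like growth factor binding protein that marks naive T cells in mice, was at 2203, 2275 and 2417 against 797, 752 and 730.2 (log2 1.59, SE 0.05, adjusted p = 3.35e-42), a 3.01-fold difference in an abundant transcript with no overlap. Atp1b1, a sodium pump subunit, was at 356, 388 and 330.3 against 175, 151 and 162 (log2 1.09, SE 0.07). Ddr1, a collagen receptor, was higher in the CD4 arm at a lower level, 34.2 ± 2.67 against 10.8 ± 3.58 (log2 1.49). Smaller differences the same way were found for Lef1 (1561, 1705 and 1665 against 1371, 1412 and 1490.2, log2 0.20, SE 0.05, adjusted p = 8.33e-04), Tcf7 (log2 0.33), Ccr7 (1505, 1485 and 1527 against 1266, 1222 and 1277, log2 0.26) and Foxo1, which drives Il7r (0.35). The Lef1 samples of the arms did not overlap, yet its call was lost without the sample block (adjusted p = 0.0763).

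Dapl1, Tdrp and Art2b were among the members higher in the CD8 arm. Dapl1 (ENSMUSG00000026989, chr2:59484653-59505020, plus strand), a death-associated protein-like gene of resting T cells, was at 491, 567 and 459 against 321, 439 and 327 (log2 -0.52, SE 0.06, adjusted p = 1.54e-12), with the lowest CD8-arm sample above the highest CD4-arm sample. Under the stricter gate the estimate had the opposite sign and was not called (log2 0.30, adjusted p = 0.597). Tdrp, a gene first described in testis, was at 498, 466 and 499 against 326, 304 and 305 (log2 -0.64, SE 0.06). Art2b, an ADP-ribosyltransferase of the T cell surface, gave 111, 61.9 and 78.1 against 50.9, 61.4 and 56.5 (log2 -0.80), and its call rested on replicate 1 (log2 -0.27, adjusted p = 0.567 without it). Il7r, the interleukin-7 receptor chain that keeps naive cells alive, was at 1102, 1129.7 and 979 in the CD4 arm and 896, 1228 and 1024 in the CD8 arm. The groups overlapped and Il7r was not called (adjusted p = 0.594).

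Of 39 genes of T cell receptor signalling, 38 were tested, 18 were higher in the CD4 arm and 9 in the CD8 arm (47.4% and 23.7%), and the median log2 fold was 0.15. DESeq2 called 13, and 15 were called without replicate 1. The receptor-proximal kinase Lck (adjusted p = 0.419) and the phosphatase Ptprc (0.171) were not called, and the zeta chain Cd247 was higher in the CD4 arm (log2 0.38). Cd5, an inhibitory surface receptor whose level follows the strength of self-recognition in the thymus, was at 689, 642 and 806 against 279, 259 and 307 (log2 1.33, SE 0.06, adjusted p = 2.26e-34). Its relative Cd6 was at 264, 245 and 273 against 149, 128 and 162 (log2 0.83), and Trat1, an adaptor that holds the receptor complex together, at 155, 141 and 167 against 37.4, 40.1 and 41.2 (log2 2.00, SE 0.13). In all 3 genes the arms were separate in every sample, as in 26.2% of all tested genes in either direction.

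Sla2 and Ptpn22, both negative regulators of receptor signalling, were higher in the CD8 arm. Sla2, an adaptor that brings receptor chains to degradation, was at 101, 87.4 and 96.6 against 48.3, 54.3 and 39.2 (log2 -1.04, SE 0.13), and its upstream sequence is printed above. Ptpn22, a phosphatase that acts on Lck, was at 490.0, 552 and 455 against 264, 312 and 286 (log2 -0.82, SE 0.06, adjusted p = 4.48e-21), without overlap. The thymic selection adaptor Themis (log2 -0.50) and the adaptor Grap2 (-0.35) were also higher there. Dusp2, a phosphatase of MAP kinases, was called at log2 -0.61, but its samples overlapped and the call was lost without replicate 1 (log2 -0.16, adjusted p = 0.835). Among inhibitors in the CD4 arm, besides Cd5, were the diacylglycerol kinases Dgka (0.36) and Dgkz (0.25).

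Of 31 costimulatory receptors and ligands 23 were tested, and 10 were higher in the CD4 arm and 5 in the CD8 arm (43.5% and 21.7%), with a median log2 fold of 0.29. Cd28, the receptor for CD80 and CD86, was at 421 ± 16.5 against 183 ± 12.1 (mean ± SD, n = 3; log2 1.20, SE 0.07, adjusted p = 5.12e-27), and its inhibitory counterpart Btla at 213 ± 8.02 against 97.6 ± 15.1 (log2 1.11). Izumo1r, the folate receptor 4 gene, was at 127, 143 and 139 against 30.5, 23.7 and 32.7 (log2 2.15, SE 0.14), and Cd200, a ligand that restrains myeloid cells, at 20.4, 17.1 and 17.3 against 2.46, 0 and 2.84 (log2 3.13). The 5 genes higher in the CD8 arm were Cd226, Crtam, Cd160, Cd96 and Cd48. Cd226, the activating receptor DNAM-1, was at 177, 219 and 173 against 70.1, 57.3 and 60.4 (log2 -1.50, SE 0.11, adjusted p = 6.39e-21), its relative Crtam at 45.7, 38.3 and 53.98 against 10.3, 8.05 and 9.41 (log2 -2.25, SE 0.24), and Cd160 at 18.2 ± 6.58 against 2.998 ± 1.102 (log2 -2.74). Cd96, a further receptor of the same ligand family, differed by less (log2 -0.50), as did Cd48, a SLAM family protein (log2 -0.42).

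Izumo1r is also a marker of regulatory T cells, and markers of that type differed between the arms. Of 12 such markers 7 were tested, 4 (Capg, Ctla4, Ikzf4 and Izumo1r) were higher in the CD4 arm and Gpr83 in the CD8 arm. DESeq2 called 2 of the 7, and 3 were called with each replicate left out in turn. The 12 summed to 327 to 356 CPM in the CD4 arm and 177 to 224 in the CD8 arm, against 3100 to 3994 plain CPM in Foxp3-gated cells. Il2ra, the receptor chain that defines them, had 23 UMIs in the CD4 arm and 2 in the CD8 arm, and Tigit was at 0 in both. Of 18 markers of effector and memory T cells, 12 were tested, and Cd44, Icos and Maf were higher in the CD4 arm and Ahnak, Cxcr6, Id2 and Vim in the CD8 arm, with 4 of the 12 called by DESeq2. Their sum was 1045 to 1239 CPM in the CD4 arm and 1460 to 1533 in the CD8 arm. Experienced-type CD4 cells were at 7966 to 8810 plain CPM and experienced-type CD8 cells at 2893 to 3518. Of 11 tested B cell markers none was called (4 at an unadjusted p under 0.05, none by DESeq2), and of 7 myeloid markers none (1 at an unadjusted p under 0.05, none by DESeq2). The B cell gate genes were not tested. Cd79b had a UMI in 9.87% ± 2.76 of thinned CD8-arm cells and 4.61% ± 2.76 of thinned CD4-arm cells. Cd79a (5.25% ± 2.72 and 5.38% ± 3.99) and Ms4a1 (2.21% ± 1.62 and 2.21% ± 1.18) were alike in the arms. Of 6 tested platelet markers Itga2b was higher in the CD8 arm, at 2.46, 29.1 and 34.1 against 2.52, 19.1 and 2.35, with 4 of the 6 at an unadjusted p under 0.05, a median log2 fold of -0.95, none called by DESeq2, 3 called without replicate 1 and none without replicate 3. The 8 platelet markers in the matrices summed to 10.5 to 235 CPM in the CD4 arm and 5.41 to 328 in the CD8 arm. Both tested dendritic cell markers were higher in the CD8 arm (Ccr9 and Bst2, the latter by log2 -0.35), and DESeq2 called 1 of them. The 10 dendritic cell markers, these included, summed to 147 to 199 CPM in the CD4 arm and 333 to 362 in the CD8 arm. In each arm 3 of the 10 were at 0, and Siglech and Xcr1 were at 0 in both. The part of these cell types in the differences was not tested.

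Of 37 cytokine receptor and pathway genes, 30 were tested, and 7 were higher in the CD4 arm and 6 in the CD8 arm (23.3% and 20%), with a median log2 fold of -0.0052. DESeq2 called 8, and 8 were called without replicate 1. Il6ra, the interleukin-6 receptor, was at 447, 486 and 454 against 279, 306 and 288 (log2 0.67, SE 0.06, adjusted p = 2.47e-16), and Il4ra, the shared interleukin-4 and interleukin-13 receptor chain, at 314, 336 and 309.9 against 199.5, 257 and 202 (log2 0.59). The TGF-beta receptor chains Tgfbr2 (log2 0.38) and Tgfbr3 (0.83) were also higher in the CD4 arm. The interferon-gamma receptor was split. Its ligand-binding chain Ifngr1 was at 352, 468 and 358 in the CD8 arm against 255, 351 and 216, higher there in all 3 samples, and its signalling chain Ifngr2 was higher in the CD4 arm (log2 -0.51 and 0.49). The Ifngr1 call was lost without the sample block (adjusted p = 0.307). Socs1, an inhibitor of cytokine signalling, was at 159, 144 and 96.6 against 59.1, 80.5 and 61.2 (log2 -1.15, SE 0.12), and Il10rb, the shared interleukin-10 receptor chain, at 119, 126 and 141 against 69.4, 97.6 and 69.8 (log2 -0.75). The common gamma chain Il2rg was not called (adjusted p = 0.0651).

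In trafficking genes, 23 of 29 were tested, 7 were higher in the CD4 arm and 6 in the CD8 arm (30.4% and 26.1%), and the median log2 fold was 0.07. Itgae and Ccr9, both receptors of gut-homing and epithelial T cells, led the CD8 side, with Cxcr6 at 101, 133 and 88.1 against 4.58, 1.01 and 0.784 (log2 -4.96, and -6.72 without replicate 1). Experienced-type CD8 cells carried less Itgae and Ccr9 than the CD8 arm, at 75.8 ± 15.6 and 33.4 ± 11.3 plain CPM. Their Cxcr6 was at 110 ± 16.0 plain CPM. Cxcr4, the receptor for CXCL12, was higher in the CD8 arm at 233 ± 5.18 against 136 ± 6.48 (log2 -0.76). On the CD4 side Gpr183, an oxysterol receptor that places cells at the follicle border, was at 247, 244 and 298 against 131, 160.3 and 107 (log2 0.98, SE 0.09). Cd44, a hyaluronan receptor that rises on antigen-experienced cells, was at 62.3, 88.5 and 69.03 against 13.3, 29.1 and 35.5 (log2 1.71, SE 0.18), and P2rx7, an ATP-gated channel, at 16.03, 22.1 and 11.8 against 4.91, 1.82 and 7.103 (log2 1.71). Itga6, a laminin receptor chain, was also higher there (log2 0.93), whereas the integrin chains Itgal, Itga4, Itgb1 and Itgb7 were not called.

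Of 23 cytotoxic and innate-type genes in the matrices 12 were tested, 3 were higher in the CD4 arm and 9 in the CD8 arm (25% and 75%), and the median log2 fold was -2.20. Nkg7 (ENSMUSG00000004612, chr7:43437073-43438249, plus strand) was at 811, 727 and 829.6 against 8.93, 5.03 and 6.28 (log2 -6.67, SE 0.10, adjusted p = 1.74e-66). Thinned CD4-arm cells held an Nkg7 UMI in 1.35% ± 0.218, near the 1.25% ± 0.574 of B cells, which should lack the gene, and CD8-arm cells in 71.4% ± 1.54. Klrd1, the CD94 chain of NK receptors, was at 390.2, 423 and 388 against 56.3, 88.5 and 39.2 (log2 -2.76, SE 0.10). Ctsw, a protease of cytotoxic cells, was at 407 ± 21.9 against 94.1 ± 8.89 (log2 -2.16), Cst7, the inhibitor cystatin F, at 136 ± 9.99 against 21.5 ± 2.32 (-2.69), and Prf1, the pore-forming protein, at 87.3 ± 11.7 against 61.5 ± 6.74 (-0.66).

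Granule effectors other than Prf1 were barely present. Gzmb had 3 UMIs in the CD4 arm and none in the CD8 arm, Gzmk 4 and 0, Ifng 2 and 0, Gzma 22 and 20 and Gzmm 7 and 8, and none passed the filter. Of 10 natural killer markers, 4 were tested and Eomes and Prf1 were higher in the CD8 arm, and 1 of the 4 was called by DESeq2 and 1 without replicate 1. The NK receptor genes Ncr1 (9 and 4 UMIs) and Klrb1c (6 and 1) stayed near 0 in both arms. 3 members of the cytotoxic list were higher in the CD4 arm. Ly6a, the Sca-1 surface protein gene, was at 331, 451 and 235 against 56.03, 80.2 and 34.1 (log2 2.58, SE 0.10, adjusted p = 1.98e-38), Fasl, the Fas ligand, at 17.6, 19.1 and 15.7 against 1.47, 0 and 2.84 (log2 3.46, SE 0.49), and Ly6e at 1885 ± 157 against 1533 ± 218 (log2 0.31).

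Of 23 enzymes that build surface glycans 18 were tested, 6 were higher in the CD4 arm and 4 in the CD8 arm (33.3% and 22.2%), and the median log2 fold was -0.11. DESeq2 called 4, and 5 were called without replicate 1. Besides St8sia6, the polysialyltransferase St8sia4 was at 185, 181 and 178 against 112, 120.2 and 116 (log2 0.67, SE 0.10). In the CD8 arm B4galnt1, which makes complex gangliosides, was at 1037, 934 and 963 against 643, 626 and 659 (log2 -0.62, SE 0.05, adjusted p = 1.34e-17), and Cmah, which converts the sialic acid Neu5Ac to Neu5Gc, at 529, 521 and 519.9 against 365, 349 and 351 (log2 -0.55, SE 0.05). Both were abundant and separate in every sample, and 26.2% of all tested genes were separate in either direction. St3gal2 (log2 1.66, higher in the CD4 arm) and St3gal3 (-1.10, higher in the CD8 arm) were scarce, and without replicate 1 neither was called (adjusted p = 0.105 and 0.696).

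All 18 MHC class I and peptide-loading genes in the matrices were tested, 9 were higher in the CD8 arm and 1 in the CD4 arm (50% and 5.56%), and the median log2 fold was -0.24. DESeq2 called 6, and 6 were called without replicate 1. The nonclassical genes H2-Q6 (989, 811 and 874 against 658, 595 and 572, log2 -0.56) and H2-Q7 (1436, 1590.3 and 1324 against 1004, 1078 and 961, log2 -0.51) led, and because these copies are near-identical their probes may share counts. Nlrc5, the transactivator of class I genes, was at 557 ± 41.1 against 424 ± 42.3 (log2 -0.38), and the light chain B2m at 1492 ± 91.95 against 1233 ± 103 (-0.27). The classical genes H2-K1 (adjusted p = 0.705) and H2-D1 (0.814) were not called. H2-T24 went the other way at 155, 145 and 139 against 86.99, 69.2 and 82.4 (log2 0.85, SE 0.11). H2-M3, which presents formylated peptides, was called at log2 -0.40 but not without replicate 1 (adjusted p = 0.288).

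Of 31 interferon-stimulated genes tested, 6 were higher in the CD4 arm and 5 in the CD8 arm (19.4% and 16.1%), and the median log2 fold was 0.0098. DESeq2 called 1 of them, and 6 were called without replicate 1. Over all 8586 genes tested, edgeR called 8.54% and 8.60%, and DESeq2 called 243 and 272 genes. Ifi27l2a was at 355, 331 and 318 against 221, 293 and 212 (log2 0.55, SE 0.07, adjusted p = 9.64e-10), and Ifit2, an RNA-binding antiviral protein, at 77.4, 90.5 and 61.97 against 42.3, 27.3 and 59.7 (log2 0.81). In the opposite direction Ifi206 was at 269, 246 and 279.9 against 211, 218 and 173 (log2 -0.40, SE 0.07). The oligoadenylate synthetase genes Oas2 (log2 0.86) and Oas3 (-0.63) were called in opposite directions, and Gbp2, a guanylate-binding protein, was higher in the CD8 arm (-0.49). Oas3 (adjusted p = 0.5998) and Gbp2 (0.212) lost their calls without replicate 1, and Oas2 (0.0936) without replicate 2.

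Of 8 GIMAP genes, small GTPases that support lymphocyte survival and lie side by side on chromosome 6, all were tested, 6 were higher in the CD4 arm and 1 in the CD8 arm (75% and 12.5%), with a median log2 fold of 0.37. Gimap4 was at 1129.7, 1144 and 1225 against 781, 854 and 813 (log2 0.52, SE 0.05, adjusted p = 4.69e-14), Gimap6 at 989, 991 and 963 against 719.5, 685 and 766 (log2 0.44) and Gimap9 at 372, 387 and 364 against 275, 277 and 289.8 (log2 0.42). None of these 3 overlapped between arms, as was true of 26.2% of all tested genes in either direction. Gimap5, whose loss shortens T cell survival, was the exception at 156, 160.3 and 153 in the CD8 arm against 105, 109.6 and 99.6 in the CD4 arm (log2 -0.57, SE 0.10).

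**Figure D3:**
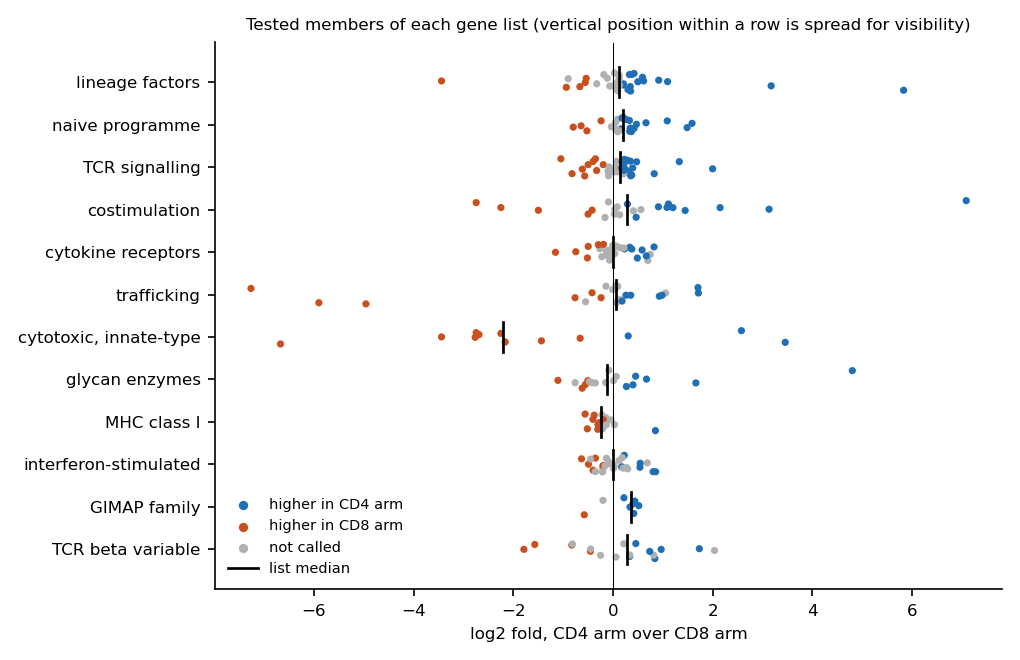
Points are the tested members of 12 gene groups at their log2 fold of the CD4 arm over the CD8 arm (x axis), blue where called higher in the CD4 arm, red where called higher in the CD8 arm and grey where not called, with a black bar at each median. The cytotoxic list has its median at -2.20, and the medians of the other groups lie between -0.24 and 0.37.

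The T cell receptor beta chain is built from 1 of many variable genes (Trbv). Each value below is the share of all Trbv UMIs of a sample and arm that fell on the probes of 1 gene. Probes differ in yield (Trbv13-2 gave only 7 UMIs in the CD4 arm and 1 in the CD8 arm), so a share is compared between arms within a gene, not between genes, and is not the share of cells that use the gene. Of 22 Trbv genes, 18 were tested, 6 were higher in the CD4 arm and 4 in the CD8 arm (33.3% and 22.2%). Trbv2 made up 9.74%, 8.38% and 9.52% of all Trbv UMIs in the CD4 arm and 3.02%, 1.82% and 4.26% in the CD8 arm (log2 1.73, SE 0.11, adjusted p = 1.14e-22). Trbv1 (log2 0.84) and Trbv5 (0.97) were higher in the CD4 arm too. Trbv29 went the other way with 6.85%, 7.36% and 4.86% in the CD8 arm and 2.02%, 1.14% and 1.51% in the CD4 arm (log2 -1.79, SE 0.13, adjusted p = 3.04e-20), and so did Trbv12-1 with 7.33%, 6.31% and 7.14% against 2.12%, 2.095% and 2.54% (log2 -1.57, SE 0.12). Trbv12-2 was also higher in the CD8 arm, at 16.8%, 22.1% and 15.9% against 8.796%, 8.95% and 10.1% in the CD4 arm (log2 -0.82). Each of these genes was separate between the arms in every sample, as were the levels of 26.2% of all tested genes in either direction. Trbv31 was also separate, at 9.93%, 9.000% and 7.42% against 2.72%, 3.92% and 0.456%, but its spread over samples was wide and it was not called (log2 2.04, adjusted p = 0.103). Trbv12-1 and Trbv12-2 are near-identical copies, so their probes may share counts.

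**Figure D4:**
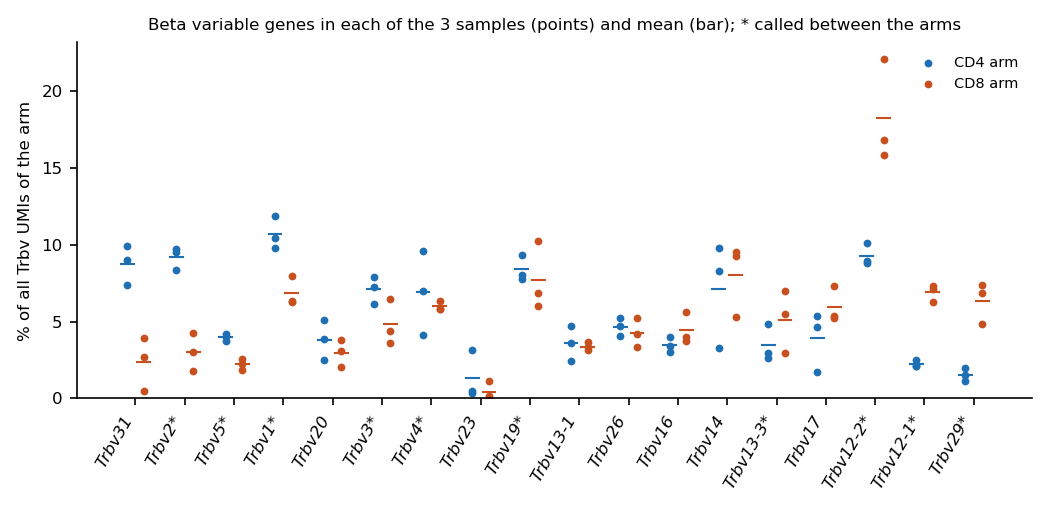
Points are the 3 samples of each arm and bars their means, as the percentage of all Trbv UMIs of that sample and arm that each Trbv gene takes (y axis), ordered by log2 fold from genes higher in the CD4 arm on the left, with an asterisk at genes called between the arms. Heights compare the arms within a gene and not genes with each other, and Trbv2 on the left and Trbv29 on the right lie apart between the arms.

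Whether these differences were those of the lineages at large was asked with experienced-type cells, gated in the same way but with 2 or more UMIs of Ccl5, Cxcr3 and Il2rb together (159 CD4 and 1501 CD8 cells). In 1 fit of 4 classes, the CD4 over CD8 difference itself differed between naive-type and experienced-type cells for 426 of 8940 genes (4.77%), 196 with a higher and 230 with a lower log2 fold in the naive-type cells. The smallest of these classes held 26 cells in replicate 2 and 29 in replicate 3, and leaving out replicate 1 took the count to 151. The experienced-type classes were unlike in their marker sums. Naive-programme genes summed to 13224 to 13961 plain CPM in CD4 and 16450 to 17678 in CD8 (naive-type arms: 23772 to 24489 and 20005 to 21220 CPM). Effector and memory markers summed to 7966 to 8810 in CD4 and 2893 to 3518 in CD8. The part of this unequal label in the differences was not tested.

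The coreceptor-linked genes at the top of the CD4 list differed in experienced-type cells as well. Cd40lg had a log2 fold of 7.09 in naive-type and 6.21 (SE 0.30) in experienced-type cells, and the difference was not called (adjusted p = 0.6698). Zbtb7b stood at 5.83 and 4.51 (SE 0.22) (adjusted p = 0.09998), St8sia6 at 4.80 and 5.22 (SE 0.42) (0.789), and Cd5 at 1.33 and 1.22 (SE 0.08) (0.703). On the CD8 side Adgrg5 stood at -6.70 and -6.28 (SE 0.40) (adjusted p = 0.923). A missed threshold does not show that these folds are equal.

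Nkg7, Cxcr6, Cldnd2, Maf and Runx3 gave a called difference. Nkg7 differed by log2 -6.67 between the naive-type arms but by -0.97 (SE 0.09) between experienced-type classes, a difference of -5.69 (SE 0.19, adjusted p = 2.28e-29), and experienced-type CD4 cells carried it at 761 ± 235 plain CPM against 1543 ± 33.8 in CD8. Cxcr6 went from -4.96 to -0.14 (SE 0.19), a difference of -4.80 (SE 0.35, adjusted p = 1.88e-24). Cldnd2 differed by -6.74 (SE 0.73, adjusted p = 2.44e-13) and Maf by -3.21 (SE 0.82, adjusted p = 0.00582), the latter with a log2 fold of 6.36 (SE 0.30) in experienced-type cells. Runx3 had a log2 fold of -0.35 (SE 0.11) in experienced-type cells, a difference of -0.59 (SE 0.14, adjusted p = 0.00598). Markers of other cell types also stood apart between the experienced-type classes. Natural killer markers summed to 87.9 to 2692 plain CPM in experienced-type CD4 cells and 488 to 799.7 in CD8 cells, NKT and gamma-delta T markers, Maf among them, to 423 to 762 and 82.4 to 135, and regulatory T cell markers to 681 to 1661 and 222 to 239. Their part in these differences was not tested.

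Lef1, higher in the naive-type CD4 arm, had a log2 fold of -0.55 (SE 0.09) in experienced-type cells, a difference of 0.75 (SE 0.10, adjusted p = 6.98e-09). Experienced-type CD4 cells carried 681 ± 90.2 plain CPM of Lef1 and CD8 cells 1018 ± 56.6, so the order of the lineages was the opposite there. Dapl1 was higher in CD8 cells in both comparisons, with -1.44 (SE 0.14) in experienced-type cells and a difference of 0.92 (SE 0.17, adjusted p = 4.48e-05). Il4ra was higher in CD4 cells of the naive type and in CD8 cells of the experienced type, at -0.94 (SE 0.15), a difference of 1.53 (SE 0.16, adjusted p = 6.15e-13). Il7r, not called between the naive-type arms, had -0.53 (SE 0.09) in experienced-type cells and a difference of 0.59 (SE 0.12, adjusted p = 2.57e-04). Gata3 (difference -0.04, adjusted p = 0.954) and Il6ra (difference 0.01, adjusted p = 0.986) were not called.

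**Figure D5:**
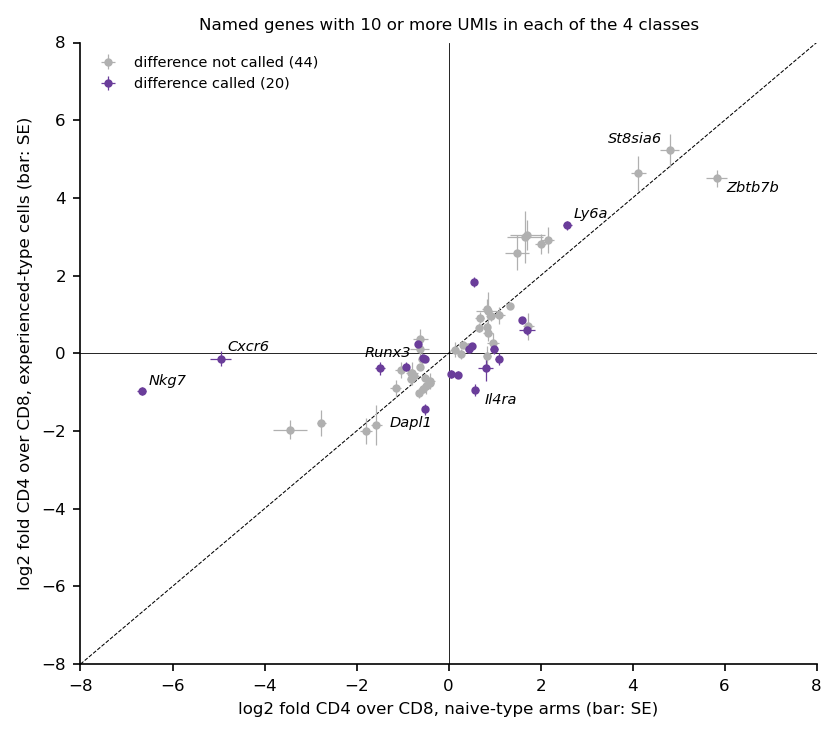
Each point is a named gene with 10 or more UMIs in all 4 classes (64 genes), with its log2 fold of CD4 over CD8 in naive-type arms on the x axis and in experienced-type cells on the y axis, bars for the SE and a dashed line where both folds are equal. The 20 purple genes had a called difference, among them Nkg7 and Cxcr6, which lie far left on the x axis and at -0.97 and -0.14 on the y axis.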

How the data were processed

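The authors deposited, for each of 3 samples, a matrix of raw UMI counts for 19059 genes, with no normalization. Barcode and feature lists were deposited beside them and hold identifiers only (unit: other). Cell Ranger 7.1.0 made the matrices per the file headers, and no source used here gives the genome build or the probe set. Probe counts do not follow transcript length, so levels were compared within a gene and not between genes. Barcodes with fewer than 200 genes were removed, and no doublets were removed from the main gate (Scrublet in scanpy 1.11.5 marked 6.06%, 2.30% and 2.08% of barcodes, 6 of them in the arms).

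Raw counts were summed per sample and arm and tested with edgeR 4.0.16 (R 4.3.3, quasi-likelihood, robust, filterByExpr, TMM) with arm and sample as terms, with p-values adjusted by the Benjamini-Hochberg method and a threshold of 0.05. The experienced-type comparison used an interaction in 1 fit of 4 classes. DESeq2 1.42.0, other scalings, other gates, thinning to 2000 UMIs, matching on UMI total and leaving out each replicate were alternatives. Each SE was derived from the fold and the F value of its gene. On simulated counts with known folds, the fit of the arms recovered 82.8% of 99 genes changed by a log2 of 1 and 100% of 98 changed by a log2 of 2, over 8474 genes. Over 8732 genes the interaction recovered 32.3% and 88.9% of 99 each. False calls were 11 genes (5.76% of calls) for the arms and 5 genes (4%) for the interaction. The spread of the simulated counts was set by hand and not estimated from these data, so the recovery holds for that spread only. Both arms come from the same library, which pairs them, and their deviations from the arm means correlated at 0.414, 0.210 and 0.127 within a sample.

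The members and the gene lists were chosen with earlier results of these data known. Always named were Zbtb7b, Runx3, Gata3, Tox, Cd40lg, Lef1, Dapl1, Ccr7 and Il7r, and a further gene of this rule is not reported here. Also named were the 12 highest and 12 lowest called genes at 20 CPM or more in an arm whose 3 samples agreed in direction, and the 3 highest and 3 lowest per list at 10 CPM or more. Other members of the lists and the markers were named after their values were seen. 8 list genes (Klrc2, Ly6c1, Ly6c2, H2-T22, Ifi213, Trgc1, Trgc2 and Ahsp) were not analysed here because the feature lists hold no such row.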

Additional observations from a re-analysis of the deposited data

Results flagged for a closer look

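The results in this section share a reason for a closer look: the CD4 over CD8 difference itself differed between naive-type and experienced-type cells, by the interaction term of edgeR's fit of 4 classes at an adjusted p of 0.05. Each value is the log2 fold of CD4 over CD8 in naive-type cells minus that in experienced-type cells, over 3 samples. This held for 4.77% of all genes tested, and the genes below were named for their difference between the naive-type arms or by name.

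Below 0, where the naive-type fold leans more to CD8, stood Cldnd2 (-6.74), Nkg7 (-5.69), Cxcr6 (-4.80) and Maf (-3.21), of which Maf was higher in CD4 cells in both comparisons. The interferon-stimulated gene Ifi27l2a (-1.30), the receptor Cd226 (-1.10), the factors Ikzf3 (-0.91) and Runx3 (-0.59), the surface protein gene Ly6a (-0.73) and the class I genes H2-Q6 (-0.43) and H2-Q7 (-0.35) followed. Ifi27l2a was also higher in CD4 cells in both comparisons (log2 0.55 and 1.84), and Ly6a was higher in the naive-type CD4 arm. Ikzf3 had opposite signs, with -0.66 in naive-type and 0.24 in experienced-type cells, the latter not called by edgeR (adjusted p = 0.0635).

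Above 0 stood the cytokine receptor chains Il4ra (1.53) and Il7r (0.59), the sodium pump subunit Atp1b1 (1.24), the antiviral gene Ifit2 (1.18), the trafficking genes Cd44 (1.10) and Gpr183 (0.87), the naive-programme genes Dapl1 (0.92), Lef1 (0.75) and Igfbp4 (0.73), and the GTPases Gimap4 (0.33) and Gimap6 (0.32). The experienced-type CD4 class was small, with 104, 26 and 29 cells in the 3 samples. The experienced-type CD8 class kept more of the naive programme than the CD4 class, as given above.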

How the results depend on the processing

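Of the 89 named genes, 54 kept their direction and their side of the threshold under every alternative that gave them a value. Not every alternative gave all of them a value. Under the stricter gate 40 stayed the same, 26 lost their call and 5 changed sign, and the rest had no value. Thinning, matching on UMI total and the gate that kept Nkg7 and Cxcr6 also left some without a value. The counts of called genes moved more. Against 733 genes higher in the CD4 arm and 738 in the CD8 arm, DESeq2's Wald test gave 243 and 272, of which 242 and 272 were also called by edgeR, thinning gave 476 and 500, and the stricter gate gave 99 and 105. Leaving out each replicate gave 393 to 606 and 441 to 637, the lowest without replicate 1. The interaction count of 426 fell to 251 with DESeq2, to 167 when 1 UMI of Ccl5, Cxcr3 and Il2rb was enough for the experienced type, and to 151 to 313 with each replicate left out. The cause was not tested, except that the stricter gate leaves 99 CD8-arm cells. Without the replicate block that pairs the arms, 518 and 544 genes were called, the interaction count was 245, and Ifngr1, Lef1 and Oas3 lost their calls. The sign changed for Dapl1 (0.30), Ifi27l2a (-0.13), Oas3 (0.49), Tox (-0.16) and Il7r (-0.0058) under the stricter gate, none of them called there, and for Il7r without replicate 1, whose range with each replicate left out was -0.092 to 0.14. The other scalings, no filter on low counts, Cd4 at 2 or more, Cd8 at 1 or more and removal of doublets changed no call among the named genes. Depth limits the scarce genes: a gene with no UMI in the CD4 arm can be bounded only by 3 counts over 6702853 UMIs, and in the CD8 arm over 3321961.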

Other observations

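Genes outside the lists also separated the arms, and those named here were chosen after their values were seen. Higher in the CD4 arm were Itgb3, an integrin chain of the vitronectin receptor, at 204, 183 and 212 against 20.2, 43.7 and 39.8 (log2 2.81, SE 0.15, adjusted p = 2.87e-22), Itm2a, a membrane protein of activated and developing T cells, at 161, 104 and 173 against 17.7, 20.04 and 24.1 (log2 2.97, SE 0.15), and the tetraspanin Tspan32 at 574, 474 and 618 against 156, 129 and 178 (log2 1.86, SE 0.07). Tesc, a calcium-binding protein, was at 159 ± 3.55 against 39.8 ± 5.44 (mean ± SD, n = 3; log2 2.00), and Stmn1, which binds tubulin, at 106 ± 6.59 against 20.9 ± 4.06 (log2 2.48). None of these genes overlapped between the arms, as was true of 26.2% of tested genes in either direction.

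Higher in the CD8 arm were Fam241a at 373, 424 and 349 against 31.4, 26.2 and 29.02 (log2 -3.65, SE 0.10, adjusted p = 6.57e-47) and Dnajc15, a mitochondrial chaperone partner, at 594, 648 and 557 against 129, 154 and 123 (log2 -2.17, SE 0.06). Plac8 was at 159 ± 25.6 against 6.53 ± 1.41 (log2 -4.64) and Ncf1, a subunit of the phagocyte oxidase, at 111 ± 35.4 against 11.7 ± 2.603 (-3.20), and both are abundant in B cells (475 ± 96.2 and 556 ± 26.1 plain CPM). Kcna2, a voltage-gated potassium channel, stood at 91.6 ± 11.3 against 8.84 ± 0.9196 (log2 -3.22) with no UMI in 8649 B cells. The samples of the arms did not overlap in any of these 5 genes, against the same share of 26.2% over all tested genes.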
